A study of Homo sapiens with 12 samples.

Results

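The transcripts of the mitochondrial genome were taken as the rows of the expression table whose gene symbol begins with MT-, which gave 37 of 60675 genes. They comprised 13 mRNAs, 2 ribosomal RNAs (rRNAs) and 22 transfer RNAs (tRNAs). The RNA came from MCF10A cells, a line of human mammary epithelium that is immortalized but does not form tumors, in 12 libraries that formed 6 groups of 2. The irradiated groups were IL1R1-KO RT, IL1RAP-KO RT and WT RT cells, which had received a single dose of 20 Gy of X-rays (radiation treatment, RT), and the untreated groups were IL1R1-KO, IL1RAP-KO and wild-type (WT) cells. The product of IL1R1 is the signaling receptor of interleukin-1, and that of IL1RAP is its accessory chain. The study asked how their loss alters the transcriptional response to RT. KO cells were puromycin-selected pools made with lentiCRISPRv2 vectors, not clones. The guide RNA behind each KO library, the vector status of the WT cells at harvest and the time between RT and RNA extraction are not given in the sources used here. The replicates are called biological, with no more said of their origin, so p-values measure the spread between these libraries.

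Human mitochondrial DNA (mtDNA) is a small circle present in many copies per cell, and its proteins are all core subunits of the respiratory chain and of ATP synthase. Both strands are transcribed as long precursors by the polymerase POLRMT with the factor TFAM, and the tRNAs that stand between the other genes mark where the precursors are cut. The mRNAs are then given poly(A) tails by MTPAP, held by the LRPPRC and SLIRP pair, and degraded by PNPT1 and its partners. All other subunits of the same complexes are encoded in the nucleus.

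The 15 mRNAs and rRNAs passed the filter on low values, a level of at least 1 TPM in at least 2 libraries, along with 15303 genes in all. TPM are read numbers divided by gene length and then scaled so that every library has the same sum. All 22 tRNA genes are listed at 0 in all 12 libraries. They are 59 to 75 bases long in the GENCODE v44 annotation, and of the 6641 genes of up to 150 bases 8, or 0.12%, were above 0 in any library, so their zeros were shared by nearly every gene of this size. Nothing about tRNA levels can be read from these libraries.

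The genes lie end to end on the 16569 bases of chrM (GRCh38), 28 of the 37 on the plus strand and 9 (MT-ND6 and 8 tRNAs) on the minus strand. MT-ATP8 is shown because it had the highest TPM of the members and shares its end with MT-ATP6, as does the junction of MT-ND4L with MT-ND4. Bases that belong to both genes are in capitals, 46 in the MT-ATP8 gene (chrM:8366-8572) and 7 in the junction (chrM:10740-10786).
MT-ATP8: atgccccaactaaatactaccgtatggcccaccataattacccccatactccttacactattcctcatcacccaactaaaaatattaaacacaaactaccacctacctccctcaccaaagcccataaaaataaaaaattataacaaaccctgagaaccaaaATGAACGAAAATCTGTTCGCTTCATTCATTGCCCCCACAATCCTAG
MT-ND4L and MT-ND4 junction: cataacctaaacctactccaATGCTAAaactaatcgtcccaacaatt

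The tRNAs around MT-ND1 and MT-ND2 are shown because these were the mRNAs with the largest response to RT. MT-TL1 (chrM:3230-3304, plus strand) stands between MT-RNR2 and MT-ND1, while MT-TI (chrM:4263-4331, plus), MT-TQ (chrM:4329-4400, minus) and MT-TM (chrM:4402-4469, plus) stand between MT-ND1 and MT-ND2. Capitals mark the 3 bases that MT-TI and MT-TQ share on opposite strands.
MT-TL1: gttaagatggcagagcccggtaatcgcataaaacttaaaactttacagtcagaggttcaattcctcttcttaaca
MT-TI: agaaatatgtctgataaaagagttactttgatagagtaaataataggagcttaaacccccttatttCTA
MT-TQ: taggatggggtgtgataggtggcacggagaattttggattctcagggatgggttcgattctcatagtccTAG
MT-TM: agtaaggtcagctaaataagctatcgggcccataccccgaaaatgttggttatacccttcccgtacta
The reading frames of MT-ND1 and MT-ND2 begin right behind these tRNAs, with 2 bases between MT-TL1 and MT-ND1 and 0 between MT-TM and MT-ND2. Their first codons, in capitals, are not ATG (MT-ND1 start, chrM:3287-3336; MT-ND2 start, chrM:4450-4499).
MT-ND1 start: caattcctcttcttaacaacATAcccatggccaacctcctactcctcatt
MT-ND2 start: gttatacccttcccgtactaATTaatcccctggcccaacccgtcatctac

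Before the results, 3 facts of the libraries bear on them. IL1RAP mRNA averaged 4.67 ± 0.396 scaled TPM (TPM divided by a factor per library) in untreated IL1RAP-KO cells and 19.3 ± 1.94 in untreated WT cells (SD, n = 2 each), whereas IL1R1 mRNA averaged 9.39 ± 2.27 in the cells labelled IL1R1-KO and 10.0 ± 0.833 in untreated WT cells, so the IL1R1 transcript does not check that label. Outside these libraries, the study reported that KO cells of both genes resisted degradation of the NF-κB inhibitor IκBα after interleukin-1 treatment. The second IL1RAP-KO RT library stood apart from the others, and values that change most without it are given beside the results. Among marker genes of other cells, fibroblast genes summed to 39.5 to 78.3 TPM in RT libraries and 18.8 to 24.6 TPM in untreated libraries (COL1A2 at 0 in all; 2 of 6 genes tested), leukocyte genes to 20.0 to 71.8 and 6.27 to 21.7 TPM (1 of 6 tested) and endothelial genes to 6.40 to 10.0 and 3.45 to 5.35 TPM (3 of 5 tested). Basal mammary epithelial genes, 8 of 8 tested, summed to 2010 to 3480 TPM in RT libraries and 4080 to 4910 TPM in untreated libraries, and luminal genes (5 of 8 tested) to 327 to 498 and 684 to 737 TPM. These sums are TPM as deposited, of which all nuclear genes together took 43.0% to 63.1% in RT libraries and 78.9% to 81.7% in untreated libraries. Lower sums after RT thus include this smaller nuclear share. The part of the marker shifts in the results below was not tested.

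Mitochondrial transcripts took up a larger share of TPM after RT in each genotype. Their share of all TPM was 40.6% and 41.2% in IL1R1-KO RT cells, against 21.1% and 20.0% in untreated cells labelled IL1R1-KO. It was 45.1% and 57.0% in IL1RAP-KO RT cells, against 20.1% and 19.9% in untreated IL1RAP-KO cells, and 38.3% and 36.9% in WT RT cells, against 18.3% and 20.8% in untreated WT cells. The 2 treatments did not overlap in any genotype, and the second IL1RAP-KO RT library was the highest of all. These are not shares of reads, because short genes weigh more in TPM. With TPM multiplied by gene length in GENCODE v44, which is nearer to reads, the share was 8.84% to 15.6% after RT and 3.24% to 3.77% untreated. These need not be the lengths behind the deposited TPM, and genes without an ID in that annotation were left out of this measure. Most of the share was mRNA (33.1% to 51.8% of TPM after RT, 16.9% to 19.5% untreated). The rRNAs made up 3.85% to 5.75% after RT and 1.35% to 2.13% untreated. The RNA had been depleted of rRNA, and whether that depletion covered the mitochondrial rRNAs is not given in the sources used here. As TPM are relative and RNA was pooled over cells, more mitochondrial RNA per cell, less nuclear RNA per cell and a change in which cells were present cannot be told apart.

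**Figure D1:**
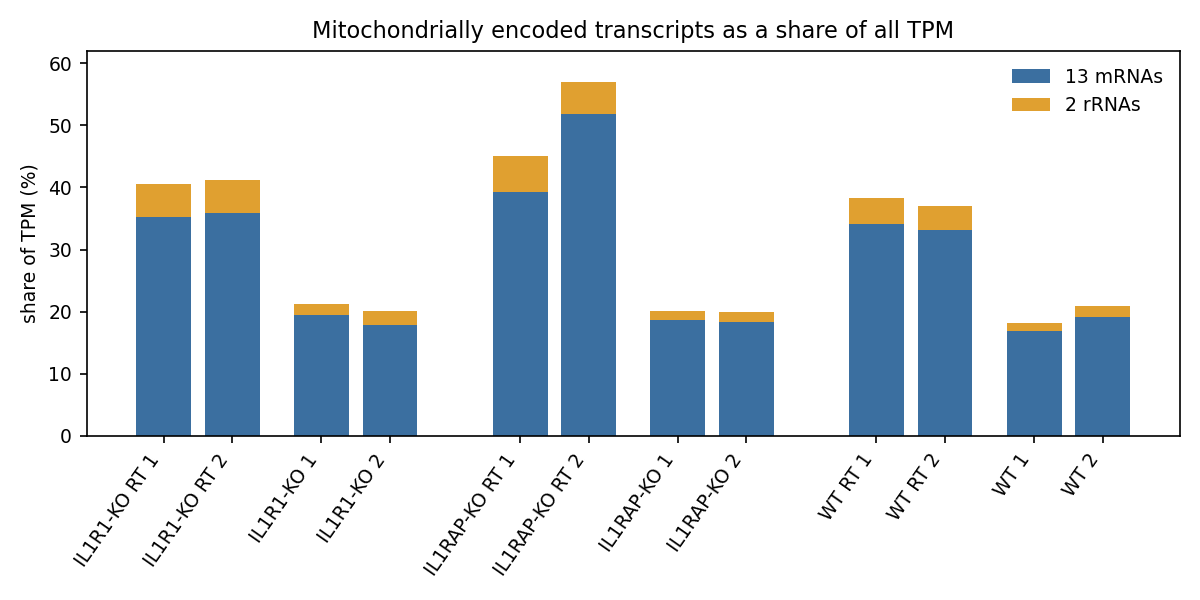
Share of all TPM, in percent, taken by the 13 mitochondrial mRNAs (lower part of each bar) and the 2 mitochondrial rRNAs (upper part) in each of the 12 libraries. RT libraries reach 36.9% to 57.0% and untreated libraries 18.3% to 21.1%.

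The members were also among the most abundant RNAs of the cells. Of the 20 genes with the highest TPM in a library, 14 or 15 were mitochondrial in RT libraries and 12 or 13 in untreated libraries. In the second IL1RAP-KO RT library the 15 highest were all mitochondrial, ahead of FTH1 (7387 TPM), the heavy chain of the iron store ferritin. MT-ATP8 was the highest member in every library, with 54607 to 108094 TPM after RT and 37617 to 44997 TPM untreated, and MT-ND6 was the lowest in all but the second IL1RAP-KO RT library, where MT-RNR1 was lower, with 6174 to 11425 TPM after RT and 3253 to 3923 TPM untreated.

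**Figure D2:**
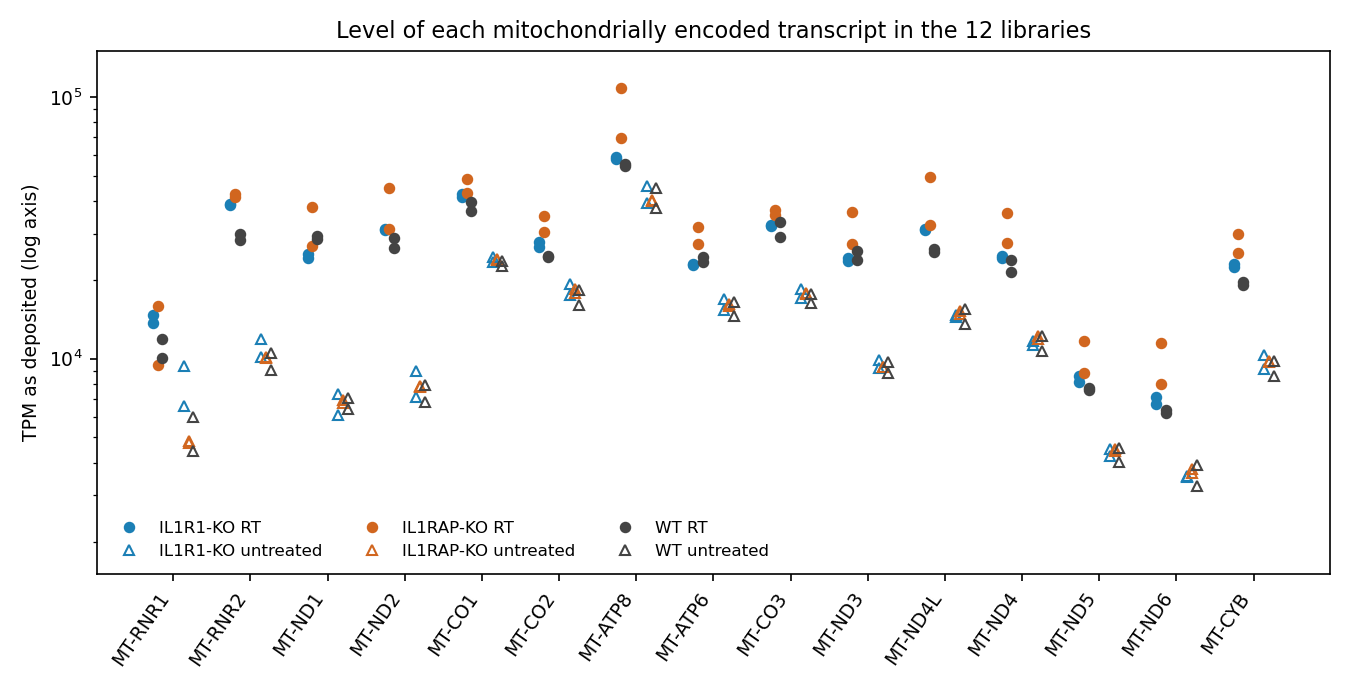
TPM as deposited, on a log axis, of the 15 measured mitochondrial transcripts in genome order, with 1 point per library (filled circles RT, open triangles untreated, colours by genotype). For each transcript the 6 RT points lie above the 6 untreated points; MT-RNR1 comes closest to overlap, with 9423 TPM in 1 RT library and 9396 TPM in 1 untreated library.

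Fold changes were taken from limma on log2(scaled TPM + 1), with scaling by a trimmed mean of all genes, and calls required an adjusted p (Benjamini-Hochberg, over all 15303 genes) under 0.05 together with a fold change over 2. In IL1R1-KO RT against untreated cells 7 of the 15 transcripts were called higher, in IL1RAP-KO cells 15, and in WT cells 11. The corresponding shares of all genes tested were 8.16%, 8.21% and 7.05%. The median log2 fold change of the 15 was 0.94, 1.72 and 1.14 in the same order of genotypes, beside medians of 0.01, 0.00 and 0.00 over all genes. None of the 15 was lower: the log2 fold changes ran from 0.45 to 1.94, from 1.20 to 2.62 and from 0.68 to 2.38. Every one of the 15 was higher in each RT library than in each untreated library, on scaled TPM and on TPM as deposited, an order that 18.3% of all genes tested showed on scaled TPM and 10.2% on TPM as deposited.

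Which members passed differed by genotype mostly through the fold threshold. At the adjusted p alone 13, 15 and 14 of the 15 were higher in IL1R1-KO, IL1RAP-KO and WT cells, against 22.6%, 23.2% and 19.9% of all genes. In cells labelled IL1R1-KO the 8 that were not called were MT-ND5, MT-ND6, MT-CO1, MT-CO2, MT-CO3, MT-ATP6, MT-ATP8 and MT-RNR1, with log2 fold changes of 0.45 to 0.94. In WT cells they were MT-CO1, MT-CO2, MT-ATP6 and MT-ATP8, with 0.68 to 0.99. Several calls lay at the threshold: without the second IL1RAP-KO RT library MT-CO2, MT-ATP6 and MT-ATP8 were at log2 0.92 to 0.96, so 12 remained called, and leaving out 1 WT or WT RT library gave WT counts of 8 (without the first WT library) to 13 (without the second). With TPM as deposited, which moved the median of all genes to 0.03, -0.28 and -0.21 in IL1R1-KO, IL1RAP-KO and WT cells, 6 were called in WT cells.

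The largest responses among the mRNAs were those of 2 neighbouring genes for subunits of complex I, the NADH dehydrogenase. MT-ND1, a core membrane subunit, had 24320 and 24999 TPM in IL1R1-KO RT cells, against 7331 and 6108 TPM in untreated cells labelled IL1R1-KO. It had 26812 and 38062 TPM in IL1RAP-KO RT cells, against 6917 and 6753 in untreated IL1RAP-KO cells. In WT RT cells it had 28732 and 29390 TPM, against 6429 and 7060 in untreated WT cells. The lowest RT library was thus more than 3 times the highest untreated one, with log2 fold changes of 1.86 ± 0.23, 2.58 ± 0.23 and 2.38 ± 0.23 (SE) and limma adjusted p-values of 0.00013, 1.8e-05 and 3.9e-05 in IL1R1-KO, IL1RAP-KO and WT cells.

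MT-ND2, another membrane subunit of complex I, followed the same order. Its TPM were 31104 and 31334 in IL1R1-KO RT cells, against 8968 and 7129 in untreated cells labelled IL1R1-KO. IL1RAP-KO RT cells had 31338 and 44973, against 7842 and 7758 in untreated IL1RAP-KO cells. WT RT cells had 26441 and 28930, against 6815 and 7896 in untreated WT cells. The log2 fold changes were 1.94 ± 0.24, 2.62 ± 0.24 and 2.18 ± 0.24 (SE; limma adjusted p = 0.00013, 2.1e-05 and 8.6e-05), and with all libraries no other member ranked above MT-ND1 and MT-ND2 in any genotype. Without the second IL1RAP-KO RT library the highest member in IL1RAP-KO cells was MT-RNR2, at 2.21.

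Of the other complex I mRNAs, MT-ND3 had log2 fold changes of 1.31, 2.12 and 1.69 in IL1R1-KO, IL1RAP-KO and WT cells and was called in each. MT-ND4 (1.07, 1.74 and 1.25) and MT-ND4L (1.08, 1.77 and 1.10), which share a junction and a transcript, moved by similar amounts; without the filter on low values MT-ND4L missed the adjusted p in IL1R1-KO and WT cells (0.073 and 0.069). MT-ND5 (0.92, 1.54 and 1.11) and MT-ND6 (0.94, 1.72 and 1.08) passed the fold threshold in IL1RAP-KO and WT cells. MT-ND6 is the one mRNA read from the other strand, and its level as a ratio to its neighbour MT-ND5 was 0.812 to 0.977 after RT and 0.795 to 0.860 untreated, so these ranges overlapped. The library kit marks the strand, but whether strand was used in counting is not given in the sources used here, so reads of MT-ND6 and of RNA from the opposite strand may not be separated.

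The rRNAs of the mitochondrial ribosome did not move alike. MT-RNR2, the rRNA of the large subunit, had 38845 and 38599 TPM in IL1R1-KO RT cells, against 10176 and 11865 TPM in untreated cells labelled IL1R1-KO. It had 41578 and 42525 in IL1RAP-KO RT cells, against 10094 and 10154 in untreated IL1RAP-KO cells, and 29937 and 28453 in WT RT cells, against 9028 and 10460 in untreated WT cells. As deposited, its RT replicates lay close together in each genotype, while on scaled TPM those of IL1RAP-KO RT cells averaged 50522 ± 9423 (SD, n = 2). Its log2 fold changes of 1.80, 2.41 and 1.85 (SE 0.16 each; limma adjusted p = 1.5e-05, 2.8e-06 and 1.8e-05) ranked behind those of MT-ND1 and MT-ND2 alone.

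MT-RNR1, the rRNA of the small subunit, had 13737 and 14620 TPM in IL1R1-KO RT cells, against 6603 and 9396 in untreated cells labelled IL1R1-KO. It had 15919 and 9423 in IL1RAP-KO RT cells, against 4759 and 4848 in untreated IL1RAP-KO cells, and 11905 and 10030 in WT RT cells, against 4441 and 5998 in untreated WT cells. Its log2 fold changes of 0.83, 1.71 and 1.35 (SE 0.22 each; limma adjusted p = 0.011, 0.00015 and 0.00085) were smaller than those of MT-RNR2 in each genotype. As a percentage of MT-RNR2, MT-RNR1 was 22.2% to 39.8% in RT libraries and 47.1% to 79.2% in untreated libraries, with no overlap. The lowest value was that of the second IL1RAP-KO RT library, the other RT libraries being at 35.3% or more; the highest was that of the second untreated library labelled IL1R1-KO, in which RN7SL1, an abundant small cytoplasmic RNA, also stood at 1209 TPM beside 125 to 178 TPM in the other untreated libraries. Whether the depletion removed the 2 rRNAs, and how evenly, was not tested.

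The log2 fold changes of the complex IV subunits were smaller than that of the complex III subunit in each genotype. MT-CYB, cytochrome b and the only mitochondrially encoded subunit of complex III, was called in each genotype (log2 fold changes 1.20, 1.86 and 1.35 in IL1R1-KO, IL1RAP-KO and WT cells). It stood at 19182 to 30023 TPM after RT and 8557 to 10318 TPM untreated. The 3 catalytic core subunits of cytochrome c oxidase, MT-CO1, MT-CO2 and MT-CO3, had log2 fold changes of 0.79, 0.55 and 0.84 in cells labelled IL1R1-KO, of 1.28, 1.20 and 1.38 in IL1RAP-KO cells and of 0.99, 0.79 and 1.14 in WT cells. Of these 3, none was called in the IL1R1-KO comparison and MT-CO3 alone in the WT comparison. MT-CO1 was 36671 to 48408 TPM after RT and 22541 to 24358 TPM untreated.

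The ATP synthase subunits had the smallest log2 fold changes of all in the cells labelled IL1R1-KO. MT-ATP8, a small subunit of its membrane part, had 58104 and 58791 TPM in IL1R1-KO RT cells, against 45595 and 39229 in untreated cells labelled IL1R1-KO. It had 69400 and 108094 in IL1RAP-KO RT cells, against 40237 and 39859 in untreated IL1RAP-KO cells, and 55257 and 54607 in WT RT cells, against 37617 and 44997 in untreated WT cells. The groups did not overlap, but with an SE of 0.28 the log2 fold changes of 0.45 and 0.68 in IL1R1-KO and WT cells missed the limma adjusted p (0.21 and 0.07). That SE rests on a spread shared by all groups, and the MT-ATP8 replicates were furthest apart in IL1RAP-KO RT cells (log2 0.99 on scaled TPM). It is thus not the spread of the IL1R1-KO and WT libraries alone. The log2 fold change of 1.47 in IL1RAP-KO cells (limma adjusted p = 0.0016) was 0.96 without the second RT library. MT-ATP6, the proton channel subunit read from the same mRNA, had log2 fold changes of 0.48, 1.23 and 0.90 in IL1R1-KO, IL1RAP-KO and WT cells. MT-ATP8 stood 2.27 to 3.41 times above MT-ATP6 after RT and 2.46 to 2.74 times untreated, although both lie on one transcript; the gene is 207 bases long, 46 of them shared, so its level per length rests on few bases and on how shared reads were counted, which the sources used here do not give.

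**Figure D3:**
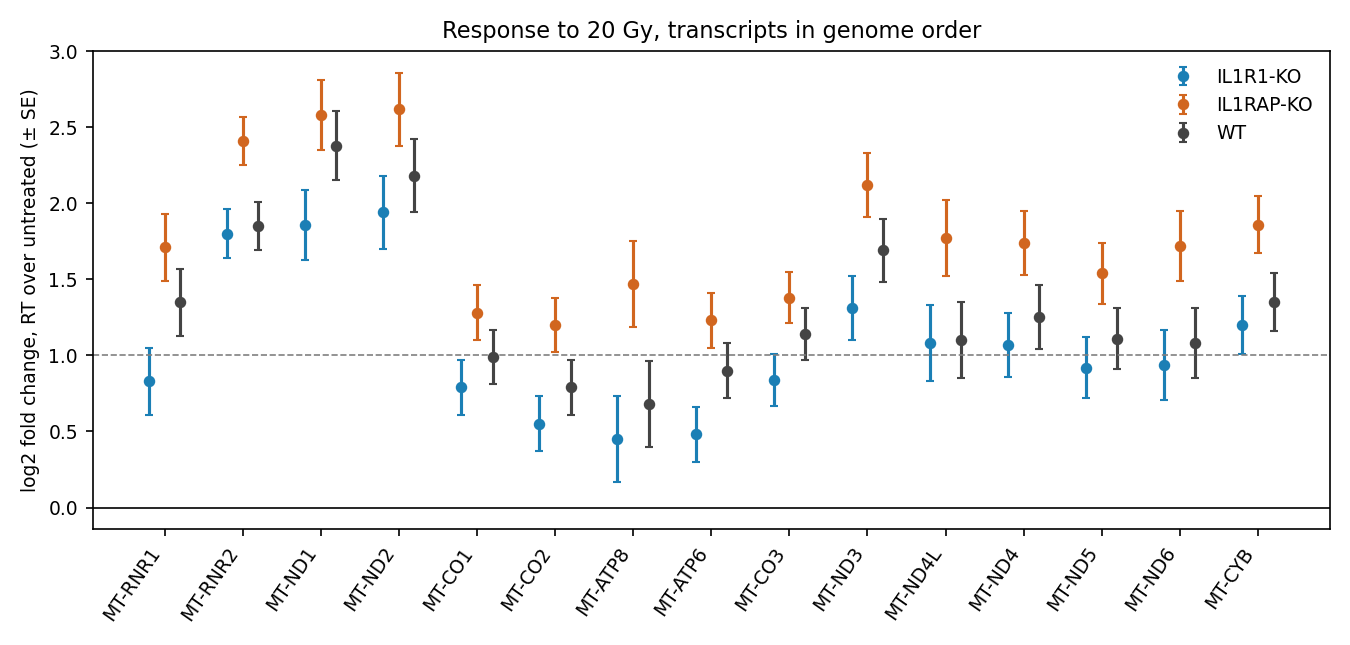
Log2 fold change (RT over untreated, limma, bars ± SE) of the 15 transcripts in genome order for IL1R1-KO, IL1RAP-KO and WT cells; the dashed line marks a fold change of 2. With all libraries MT-ND1 and MT-ND2 are highest in each genotype, at 1.86 to 2.62, and MT-CO2, MT-ATP6 and MT-CO1 are among the 4 lowest in each.

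With all libraries the response was ordered alike in the 3 genotypes. MT-ND1 and MT-ND2 held ranks 1 and 2, MT-RNR2 rank 3 and MT-ND3 rank 4 of the 15 in each, and the smallest was MT-ATP8 in IL1R1-KO and WT cells and MT-CO2 in IL1RAP-KO cells. MT-RNR2, MT-ND1 and MT-ND2 follow each other on the genome. Over the whole genome, Spearman's rho between gene start and log2 fold change was -0.02, -0.09 and -0.24 in IL1R1-KO, IL1RAP-KO and WT cells. It was 0.30, 0.18 and 0.41 for gene length and -0.03, -0.20 and 0.15 for GC content (n = 15 genes that share libraries and precursors, a description with no test).

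Because the members differed in their response, the make-up of the mitochondrial mRNA pool changed, a measure that does not depend on how libraries are scaled. As a share of the TPM of the 13 mRNAs, 4 were higher in every RT library than in every untreated library, 4 were lower and 5 overlapped. MT-ND1 was 6.82% to 8.88% of the pool after RT and 3.42% to 3.80% untreated, and MT-ND2 7.74% to 8.81% and 3.99% to 4.61%. MT-ND3 (6.68% to 7.52%, against 4.98% to 5.19%) and MT-CYB (5.74% to 6.43%, against 5.06% to 5.30%) were the others above. Those below were MT-CO1 (9.35% to 11.8%, against 12.1% to 13.6%), MT-CO2 (6.74% to 7.79%, against 9.48% to 9.93%), MT-ATP6 (6.13% to 7.13%, against 8.55% to 8.81%) and MT-ATP8 (16.2% to 20.9%, against 21.7% to 23.5%). The ratio of MT-ND1 to MT-CO2 put this in 1 number per library, 0.882 to 1.20 after RT and 0.348 to 0.401 untreated. MT-CO3, MT-ND4L, MT-ND4, MT-ND5 and MT-ND6 kept overlapping shares.

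**Figure D4:**
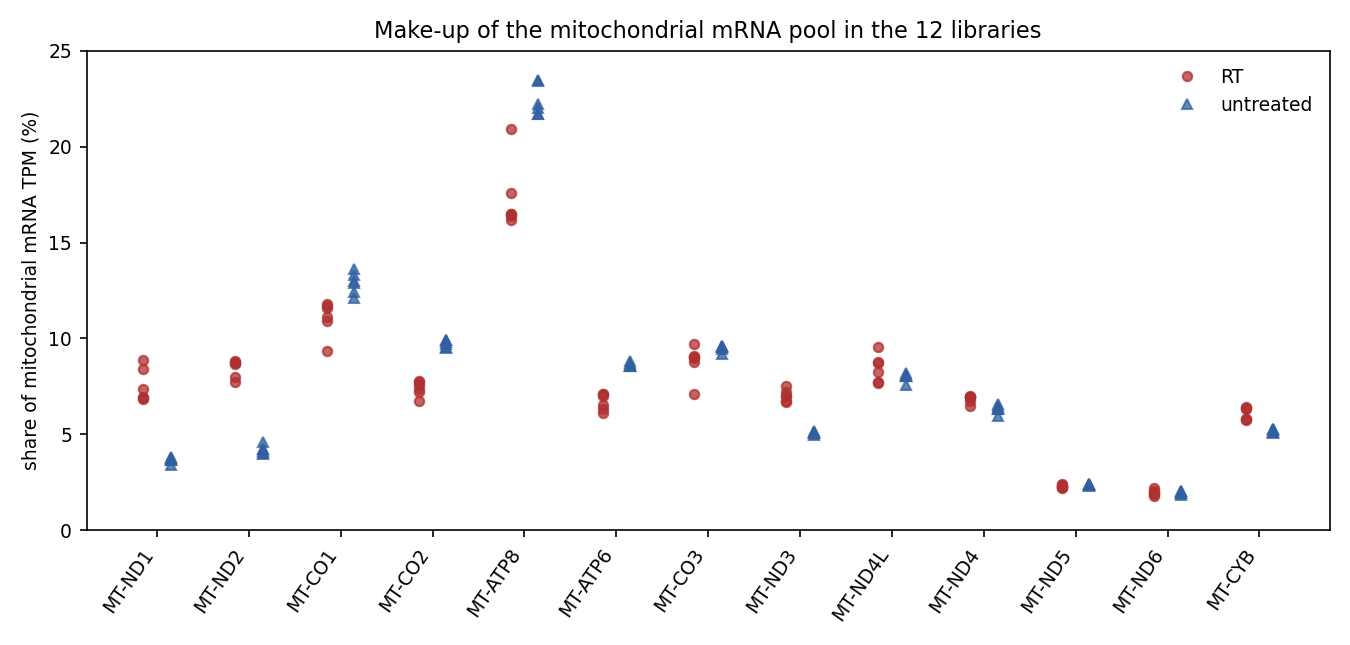
Share of each mRNA, in percent, in the summed TPM of the 13 mitochondrial mRNAs; 6 RT libraries (circles, left) and 6 untreated libraries (triangles, right) per gene. MT-ND1, MT-ND2, MT-ND3 and MT-CYB lie higher after RT, and MT-CO1, MT-CO2, MT-ATP8 and MT-ATP6 lower, without overlap.

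Loss of either receptor chain was compared with WT cells before and after RT. Without RT, none of the 15 transcripts was called by limma in cells labelled IL1R1-KO (log2 fold changes 0.01 to 0.63; 1 at an unadjusted p under 0.05, 0.137% of all genes called) or in IL1RAP-KO cells (-0.10 to 0.10; 0 at an unadjusted p under 0.05, 0.0915% called). After RT none was called in IL1R1-KO RT against WT RT cells (-0.50 to 0.14; 0 at an unadjusted p under 0.05, 3.06% of all genes called). None was called either in IL1RAP-KO RT against WT RT cells (2.89% of all genes called), although all 15 were higher by 0.23 to 0.75. Of the 15, 8 had an unadjusted p under 0.05 in limma. The shares of all genes given here refer to calls, and none was taken for the unadjusted p, so those counts have no background. The higher levels rested on the second IL1RAP-KO RT library: without it 14 were higher, by a median of 0.20 in place of 0.50 over the 15, and MT-ND1 was at -0.20. With both libraries the smallest adjusted p was that of MT-RNR2, 0.032 at a log2 fold change of 0.62 ± 0.16 (SE), the one member past the adjusted p alone (5.82% of all genes were higher by that rule). These intervals are wide: the SE of 1 transcript between groups was 0.16 to 0.28, so differences of this size are not excluded.

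The IL1RAP-KO RT replicates were further apart than those of any other group. On the log2 scale of scaled TPM the second replicate exceeded the first by a median of 0.73 over the 15 transcripts, with a range of -0.41 (MT-RNR1) to 0.99 (MT-ATP8), while in the other groups this median lay between -0.16 and 0.24. The median absolute difference between its replicates over all genes was 0.25, beside 0.11 to 0.15 in the others. Without the second replicate, log2 fold changes of the 15 against WT RT cells ran from -0.2 (MT-ND1) to 0.46 (MT-RNR1). The differences from the WT response to RT then ran from -0.23 (MT-ND1) to 0.55 (MT-RNR1). Without the first replicate, these ranges were 0.05 (MT-RNR1) to 1.24 (MT-ATP8) and 0.15 (MT-RNR1) to 1.27 (MT-ATP8). MT-ND6 and MT-ND4L were next to MT-ATP8, at 1.13 and 1.19 against WT RT cells and 1.06 and 1.14 for the difference in response. Each of these fits rests on a single IL1RAP-KO RT library. With both replicates none of the 15 was called by limma for a difference between the responses of a KO line and of WT cells. For IL1R1-KO that difference was -0.52 to -0.03 (1.44% of all genes called) and for IL1RAP-KO 0.20 to 0.78 (0.817% called). At an unadjusted p under 0.05 there were 0 and 1 of the 15, with no share of all genes taken by that rule.

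The nuclear-encoded subunits of the same complexes went the other way. Of 76 tested, 28 were called lower in IL1R1-KO RT against untreated cells, 38 in IL1RAP-KO cells and 9 in WT cells, and none was called higher. Of all genes, 8.16%, 9.18% and 6.16% were called lower. Log2 fold changes above 0 were seen for 1, 3 and 2 of the 76. The median log2 fold changes were -0.87, -1.0 and -0.68. Without the second RT library the IL1RAP-KO count was smaller, and the median in IL1RAP-KO cells was -0.88. Summed TPM of the 13 mitochondrial mRNAs were 29.7 to 74.9 times those of the 76 nuclear subunits in RT libraries, or at most 40.0 times without the second IL1RAP-KO RT library, and 7.9 to 9.5 times in untreated libraries. Scaled to nuclear protein-coding genes, where the median of all genes moved to 0.40, 0.33 and 0.10, the nuclear subunits stayed lower (medians -0.40, -0.60 and -0.56), with 3, 12 and 4 of 76 called beside 3.7%, 4.47% and 4.72% of all genes, so the counts in IL1R1-KO and WT cells were near that background, and the 13 mitochondrial mRNAs stayed higher (1.41, 2.12 and 1.22).

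By complex, the 7 mitochondrial subunits of complex I summed to 143365 to 227862 TPM after RT and 53642 to 60858 TPM untreated, and its 37 nuclear subunits to 2539 to 3900 and 6798 to 7063 TPM. For complex IV the 3 mitochondrial subunits summed to 90190 to 120245 and 54854 to 61238 TPM and the 11 nuclear ones to 1465 to 2513 and 4247 to 4547 TPM. Complex II (succinate dehydrogenase), which has no mitochondrially encoded subunit, summed to 258 to 394 TPM after RT and 653 to 685 TPM untreated. None of its 4 genes was called in any genotype (limma). These sums are TPM as deposited, of which all nuclear genes together took 43.0% to 63.1% after RT and 78.9% to 81.7% untreated. They therefore do not separate lower levels of the nuclear subunits from this smaller nuclear share. Examples of called genes were ATP5F1C, the gamma subunit of ATP synthase (log2 fold changes -1.40, -1.49 and -1.18 in IL1R1-KO, IL1RAP-KO and WT cells), CYC1, cytochrome c1 of complex III (-1.43, -1.75 and -1.35), and NDUFS5 of complex I (-1.58, -1.40 and -1.10). Under the protein-coding scaling ATP5F1C and CYC1 were just below the fold threshold in IL1R1-KO cells (-0.93 and -0.96) and NDUFS5 in IL1RAP-KO and WT cells (-0.99 and -0.98). The abundant COX4I1 of complex IV (-0.85, -0.81 and -0.42) did not pass the fold threshold.

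Of the 22 genes tested that transcribe and replicate mtDNA, 1, 0 and 1 were called higher and 3, 2 and 2 lower in IL1R1-KO, IL1RAP-KO and WT cells (all genes: 8.16%, 8.21% and 7.05% higher and 8.16%, 9.18% and 6.16% lower), with medians of -0.31, -0.26 and -0.14 that became 0.13, 0.12 and -0.03 under the protein-coding scaling. Under that scaling 2, 2 and 1 were called higher and 0, 0 and 1 lower. Of all 15303 genes, 2739, 2413 and 1221 were then higher, and 3.7%, 4.47% and 4.72% lower. TFAM, which packages mtDNA and starts its transcription, averaged 27.9, 31.1 and 32.0 scaled TPM after RT in these genotypes and 70.4, 67.8 and 68.6 untreated (log2 fold changes -1.31, -1.10 and -1.08; limma adjusted p = 8.3e-06, 2.5e-05 and 3.8e-05), and it missed the fold threshold under the protein-coding scaling (-0.84, -0.71 and -0.97). POLRMT, the polymerase itself, was not called (-0.53, -0.32 and -0.34). RRM2B, a p53-induced ribonucleotide reductase subunit that supplies nucleotides for mtDNA, was called higher in IL1R1-KO and WT cells (1.06 and 1.11) and lay just under the threshold in IL1RAP-KO cells (0.96).

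Of 32 genes of mitochondrial RNA processing, modification and decay, 5, 6 and 2 were called lower and none higher in IL1R1-KO, IL1RAP-KO and WT cells (all genes: 8.16%, 9.18% and 6.16% lower, so that the WT count was at the background), with medians of -0.42, -0.48 and -0.40 (0.04, -0.08 and -0.29 under the protein-coding scaling). Under that scaling 1 of the 32 was called lower in each genotype, beside 3.7%, 4.47% and 4.72% of all genes, so the lower calls were not above the background. GRSF1, a protein of the RNA granules where precursors are cut, had log2 fold changes of -1.28, -1.35 and -1.06 in IL1R1-KO, IL1RAP-KO and WT cells, and of -0.81, -0.95 and -0.94, under the fold threshold, with the protein-coding scaling. SLIRP, which holds mitochondrial mRNAs with LRPPRC, had -1.57, -1.42 and -1.20, and LRPPRC itself -1.03, -1.11 and -0.77, the last below the fold threshold, as were the other two (-0.56 and -0.72) with the protein-coding scaling. MTPAP, the mitochondrial poly(A) polymerase, was called in IL1RAP-KO cells alone (-1.09; -0.69 and -0.77 in IL1R1-KO and WT cells), and not with the second IL1RAP-KO RT or the second untreated IL1RAP-KO library left out. ELAC2, which cuts the tRNA 3′ ends (-0.42, -0.50 and -0.30), and PNPT1, the exoribonuclease (-0.33, -0.34 and -0.52), were not called.

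**Figure D5:**
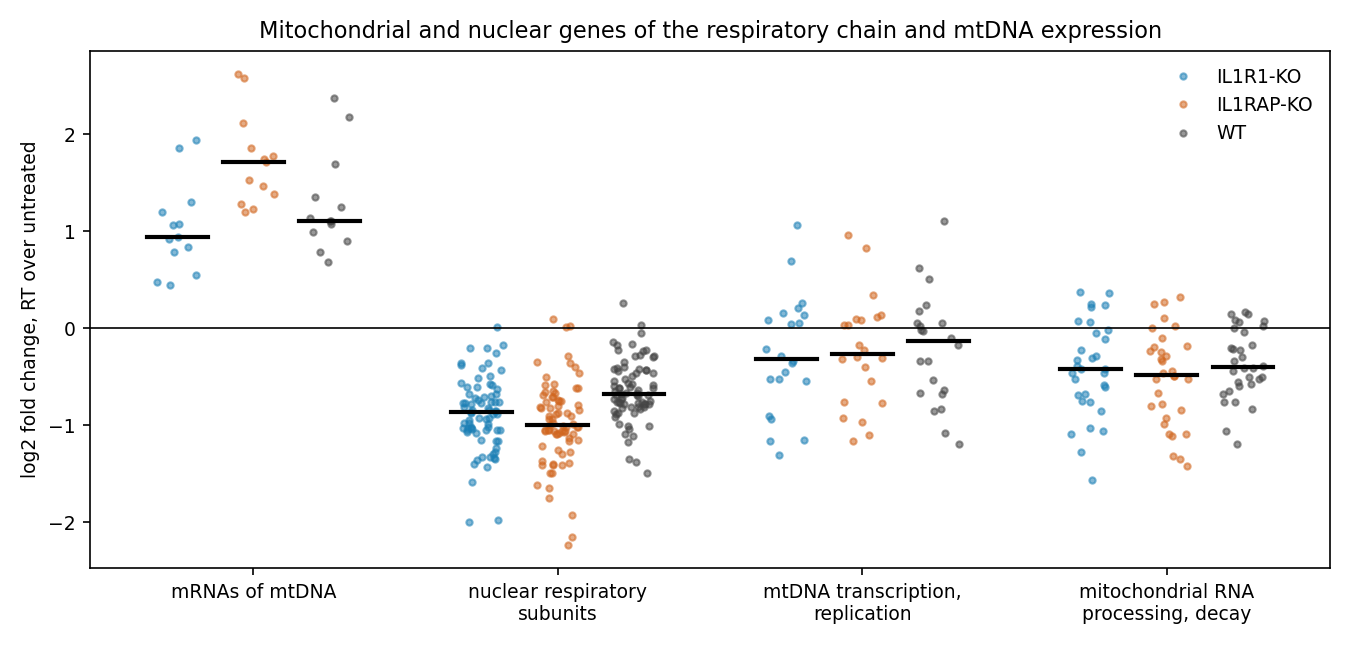
Log2 fold change (RT over untreated) of the 13 mitochondrial mRNAs, 76 nuclear-encoded respiratory subunits, 22 genes of mtDNA transcription and replication and 32 genes of mitochondrial RNA processing, 1 point per gene, with the median as a black line, in IL1R1-KO, IL1RAP-KO and WT cells. Medians are 0.94, 1.72 and 1.11 for the mitochondrial mRNAs and -0.87, -1.0 and -0.68 for the nuclear subunits; those of the other 2 lists are at -0.48 to -0.14 and become -0.29 to 0.13 under a scaling to nuclear protein-coding genes.

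Copies of mtDNA lie in the nuclear genome and can share reads with the members. By symbol alone (MT followed by ND, CO, ATP, CYB or RNR, with no hyphen), 415 genes were taken as such copies, and 9 passed the filter. Their gene class was not checked. Together they summed to 2974 to 6216 TPM after RT and 2071 to 2332 TPM untreated, nearly all of it (97.9% to 99.2%) in MTATP6P1. After RT this was 0.769% to 1.09% of the TPM of the members. MTATP6P1 (chr1:633696-634376, plus strand, GENCODE v44) differs from MT-ATP6 at 10 of 681 bases, an identity of 98.5%. Its mean was 2936, 5958 and 3604 scaled TPM after RT and 1995, 2039 and 2027 untreated in IL1R1-KO, IL1RAP-KO and WT cells. It held 0.124 to 0.194 of the MT-ATP6 level after RT and 0.129 to 0.142 untreated. Its log2 fold changes of 0.56, 1.43 and 0.82 passed both thresholds in IL1RAP-KO cells alone, where it was 0.82 without the second RT library. MTCO1P12, 98.6% identical to MT-CO1, and MTND2P28, 98.4% identical to MT-ND2, were far lower. MTCO1P12 averaged 34.6, 26.7 and 35.6 scaled TPM after RT and 17.5, 19.7 and 15.9 untreated in IL1R1-KO, IL1RAP-KO and WT cells and was called in WT cells alone; in the second IL1RAP-KO RT library it had 14.4 TPM as deposited, below both untreated IL1RAP-KO libraries. MTND2P28 averaged 11.6, 19.1 and 10.2 after RT and 2.73, 3.67 and 2.12 untreated. The split of reads between these loci and mtDNA is uncertain, and their sum is small beside that of the members.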

How the data were processed

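Per the labels and the study's methods, total RNA was depleted of rRNA, made into stranded libraries (TruSeq) and sequenced in read pairs, and the authors used cutadapt 1.15, STAR 2.5.3a, GRCh38 and HTSeq. The authors deposited TPM per gene; how gene lengths were set is not given in the sources used here. Read counts were not used, so the depth behind a value is not known and intervals for counting error are not given. The 12 single-library files equal their columns in the whole table, and 60419 gene IDs are in GENCODE v44, the source of positions and sequences (GRCh38).

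Genes with at least 1 TPM in at least 2 libraries were kept. TPM were divided by factors of 0.744 to 1.10 (unweighted trimmed mean, 30% of M and 5% of A values trimmed), log2(scaled TPM + 1) was fitted as 6 group means with limma (version 3.58.1, R 4.3.3) and a variance trend, and fold changes are on that scale. Values per library, shares and ratios are TPM as deposited; means ± SD are scaled TPM. Scripts were tested on simulated data. Members and lists were chosen with earlier results of these data known. Named nuclear genes were a fixed set of mtDNA expression genes, up to 4 called genes per list with the smallest adjusted p, 2 uncalled genes with the highest mean, and the 5 most abundant nuclear copies. Alternatives were other scalings, pseudocounts, filters, no variance trend, the compared libraries alone, a replicate block and leaving out each library.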

Additional observations from a re-analysis of the deposited data

How the results depend on the processing

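No called transcript changed direction under any alternative run. The count of transcripts higher after RT was 6 in WT cells with TPM as deposited, and in cells labelled IL1R1-KO 13 when scaled to nuclear protein-coding genes and 13 at the adjusted p alone. Leaving out 1 library gave 7 to 8 in IL1R1-KO, 12 to 15 in IL1RAP-KO and 8 to 13 in WT cells. In IL1RAP-KO RT against WT RT cells the count was 2 under the protein-coding scaling, 1 at the adjusted p alone and 0 to 3 without 1 library, and for the difference in response it was 0 to 3. Deviations of same-numbered libraries correlated at -0.06 to 0.10 over 15 pairs of groups, so little deviation over genes was shared by number. Whether same-numbered libraries were paired by origin cannot be told from this and is not given in the sources used here. With a replicate block the counts were 7, 15 and 11, and it changed none of the counts of transcripts called. Over all genes, 1248, 1256 and 1079 were called higher and 1248, 1405 and 942 lower after RT in IL1R1-KO, IL1RAP-KO and WT cells; these were 1345, 733 and 718 against 1221, 2532 and 1652 with TPM as deposited, and 2739, 2413 and 1221 against 566, 684 and 722 under the protein-coding scaling.

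The ratio of the mitochondrial share after RT to that without it was 1.99, 2.55 and 1.92 in IL1R1-KO, IL1RAP-KO and WT cells, and 1.94 to 2.05, 2.25 to 2.85 and 1.81 to 2.05 without 1 library. Without MT-ATP8 and MT-ND4L it was 2.22 and 2.17 in IL1R1-KO and WT cells. In IL1RAP-KO cells that share was 38.8% and 48.9% after RT, against 15.4% and 15.2% untreated. With TPM multiplied by gene length the ratio was 2.63, 3.74 and 2.64. Both alternatives were chosen after seeing the data. Short genes weigh more in TPM, so the second measure brings the share nearer to one of reads. With 2 libraries a group, smaller differences between genotypes are not excluded.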
